A study of Mus musculus with 8 samples.

Results

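Basal keratinocytes are held to the skin's basement membrane by hemidesmosomes, and 9 genes of that anchorage were followed here: Itga6, Itgb4, Col17a1, Cd151, Dst, Plec, Lama3, Lamb3 and Col7a1. They were chosen by name, as parts of this structure, out of 54838 genes in the count tables and with earlier results of these data known. All 9 were found by their Ensembl identifiers and passed the filter on low counts. The main pattern was at 52 DPI, where 5 of the 9 genes had both iDKO libraries below both control libraries, beside 10.2% of all tested genes. These 5 varied closely together over the 8 libraries (Pearson's r of 0.963 to 0.995 between them), so they are not 5 separate observations. Their gap was wider in the replicate 2 pair, where Krt5 and Krt14 were lower in iDKO as well. No difference in any of the 9 genes passed the test across all genes, and the replicates of a group lay farther apart on average than the iDKO and control libraries of a pair.

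In a hemidesmosome, an integrin pair and a transmembrane collagen cross the basal cell membrane, and plakin proteins tie their inner ends to the keratin filaments of Krt5 and Krt14. Outside the cell they bind a laminin trimer of the basement membrane, which is in turn fastened to the dermis by anchoring fibrils of type VII collagen. Inherited loss of these proteins causes blistering of the skin in humans, the group of diseases named epidermolysis bullosa.

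The libraries came from mouse epidermis freed from skin with trypsin and were grouped by the labels as Ovol1/2 iDKO at 52 DPI, control at 52 DPI, Ovol1/2 iDKO at 25 DPI and control at 25 DPI, with 2 biological replicates in each group and 8 libraries in all. The Ovol genes code for transcription factors with zinc fingers that act in epithelia. The labels do not spell out iDKO or DPI, and the alleles, the driver that recombines them, any inducing agent, the strain, the age and the genotype of the controls in full are not stated in those labels. Sex-linked transcripts split the libraries by time, with 158 to 4748 counts of Y-linked genes and 2 to 6 counts of Xist in the 25 DPI libraries, against 0 counts of Y-linked genes and 3765 to 16631 counts of Xist in the 52 DPI libraries, so time and sex cannot be told apart. Levels are given in CPM after TMM scaling of the library sizes, and differences are on a log2 scale, where 1 unit is a doubling.

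Library totals were 9824307 to 50711381 counts, and the lowest count of any of the 9 genes was 391, for Cd151, where counting error alone is 5.06%. The 8 libraries were epidermal, with 23584 to 47833 CPM over 10 markers of basal keratinocytes and none of these markers at 0. Over 8 endothelial markers the sum was 2.17 to 6.24 CPM, with 0 to 5 of the 8 at 0 in a library. Ovol1 and Ovol2 transcripts were not lower in the libraries labelled iDKO: in each of the 4 pairs of same time and replicate number both genes had more CPM in iDKO than in control. Which exons the alleles remove is not given, so whole-gene counts do not check these labels, and iDKO and control below name libraries as labelled. One library stood apart, control 25 DPI replicate 1, which had the lowest level of all 9 genes among the 8 libraries. It also held 363 CPM over 5 melanocyte markers, against 29.5 to 45.2 CPM in the other libraries, and 374 CPM over 6 T cell markers, against 47.8 to 276 CPM. A further library, iDKO 52 DPI replicate 2, held the fewest basal marker counts and 11547 CPM over 8 markers of the hair follicle stem cells and root sheath. On that list control 25 DPI replicate 1 held 11910 CPM and the other 6 libraries 3150 to 6811 CPM, and no gene of the melanocyte, T cell or follicle lists was at 0 in any library. The follicle sums do not show a rise of every marker. In the 52 DPI replicate 2 pair 4 of the 8 were higher in iDKO and 4 lower (median log2 difference 0.35). In the 25 DPI replicate 1 pair 2 were higher in iDKO and 6 lower (median -0.215). The part of these markers in the results below was not tested. In bulk epidermis, fewer basal cells and less RNA of a gene per basal cell cannot be told apart.

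The genes lie apart from each other in the mouse genome (GRCm38). Itga6 spans chr2:71745616-71858416, Itgb4 chr11:115974709-116008412, Col17a1 chr19:47646344-47692094, Cd151 chr7:141467392-141471473, Dst chr1:33908225-34308661, Plec chr15:76170974-76232574, Lamb3 chr1:193207699-193343878 and Col7a1 chr9:108953586-108984875. All are protein coding, and Col17a1 and Plec are on the minus strand. The stretch around the transcription start is shown for 3 members of different roles. Each window is 300 bases from RefSeq (GRCm38.p6), 250 before to 50 after an annotated start, written 5′ to 3′ on the strand of the gene, at chr19:47691993-47692292 (minus strand) for Col17a1, chr1:193301993-193302292 (plus strand) for Lamb3 and chr1:34160010-34160309 (plus strand) for Dst. Capitals mark CACCTG, an E-box bound by ZEB and SNAI repressors, and CCGTTA, the core that OVOL proteins bind.
Col17a1: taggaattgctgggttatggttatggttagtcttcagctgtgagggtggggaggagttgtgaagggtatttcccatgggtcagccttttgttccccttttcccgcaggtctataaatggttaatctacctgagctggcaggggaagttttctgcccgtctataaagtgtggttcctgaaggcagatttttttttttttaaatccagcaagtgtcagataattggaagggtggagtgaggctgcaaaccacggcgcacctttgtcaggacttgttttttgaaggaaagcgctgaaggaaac
Lamb3: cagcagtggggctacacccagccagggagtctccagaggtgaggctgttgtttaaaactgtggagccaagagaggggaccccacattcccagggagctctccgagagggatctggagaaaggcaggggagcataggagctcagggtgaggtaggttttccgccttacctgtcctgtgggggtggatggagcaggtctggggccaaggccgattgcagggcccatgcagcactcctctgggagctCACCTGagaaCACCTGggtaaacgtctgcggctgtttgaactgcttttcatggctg
Dst: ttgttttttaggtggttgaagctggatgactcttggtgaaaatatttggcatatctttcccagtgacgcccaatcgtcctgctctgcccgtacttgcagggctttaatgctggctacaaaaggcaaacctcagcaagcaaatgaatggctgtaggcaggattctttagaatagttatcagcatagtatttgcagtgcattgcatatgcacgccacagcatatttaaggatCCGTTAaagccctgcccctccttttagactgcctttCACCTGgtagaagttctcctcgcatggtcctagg
The Col17a1 window held none of the 3 motifs searched, the printed Lamb3 window held CACCTG at 2 places near its start site, and the printed Dst window held CCGTTA and CACCTG once each. Lamb3 and Dst each had 1 more window at another start, with fewer matches than the printed one. That of Lamb3 (chr1:193301744-193302043), which overlaps the printed one, held none of the 3 motifs. That of Dst (chr1:34011345-34011644) held CACCTG once and no CCGTTA. Windows on the chromosome of Lama3 were left out of the search. Among those searched, 5 of the 9 genes had 8 windows, Col17a1, Lamb3, Dst, Cd151 and Col7a1. On either strand CACCTG was in 4 of the 8 windows, from 3 genes, and in 20.2% of all 32851 windows searched. CCGTTA was in 1 of the 8 and in 2.76% of all windows. TGANTCA, the AP-1 motif, was in 0 of the 8 and in 7.81% of all windows. None of these letters shows that a factor is bound there.

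Itga6 and Itgb4 encode the integrin pair, which binds laminin outside the cell and plectin inside. At 52 DPI, Itga6 was at 604 and 467 CPM in iDKO replicates 1 and 2, against 790 and 1082 CPM in the controls. At 25 DPI Itga6 had 353 and 1098 CPM in iDKO, against 163 and 1235 CPM in the controls. Both iDKO libraries were below both controls at 52 DPI, whereas at 25 DPI the groups overlapped and each held a low replicate 1 and a high replicate 2. The log2 fold change of iDKO over control was -0.81 (SE 0.97) at 52 DPI and 0.05 (SE 0.97) at 25 DPI. Neither passed the test (edgeR quasi-likelihood test, adjusted p = 1 and 0.9999).

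Itgb4, the chain with the long inner tail that reaches plectin, had 584 and 291 CPM in iDKO and 651 and 880 CPM in control at 52 DPI. At 25 DPI it had 262 and 848 CPM in iDKO and 56.2 and 839 CPM in control. Its control 25 DPI replicate 1 library was the lowest of the 8, while the replicate 2 libraries at 25 DPI were nearly level. Its log2 fold change was -0.81 (SE 1.15) at 52 DPI and 0.31 (SE 1.14) at 25 DPI. Neither passed (edgeR, adjusted p = 1 and 0.9999). Within pairs, iDKO minus control was -0.16 and -1.60 on the log2 scale at 52 DPI, and 2.22 and 0.01 at 25 DPI. Itgb4 was thus lower in iDKO in both pairs at 52 DPI and higher in both pairs at 25 DPI, which held for Plec as well and for no other of the 9 genes. With the replicate number as a block within time, which compares each iDKO library with the control of its own number, the effect at 52 DPI minus that at 25 DPI was -1.99 (SE 0.83) for Itgb4 and did not pass (edgeR, unadjusted p = 0.0492, adjusted p = 0.793). Per kb of merged exons, the ratio of the 2 chains ran from 0.442 to 1.24 over the 8 libraries. Itgb4 over Itga6 in CPM per kb was 1.24 and 0.801 in iDKO and 1.06 and 1.05 in control at 52 DPI, and 0.956 and 0.993 in iDKO and 0.442 and 0.874 in control at 25 DPI. The ratio was lowest in control 25 DPI replicate 1. It also depends on the length used. With the longest transcript of each gene the median level was 99.4 CPM per kb for Itgb4 and 162 for Itga6.

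Col17a1 encodes type XVII collagen, which crosses the basal membrane and binds the integrin, the plakins and laminin. At 52 DPI it had 3463 and 2244 CPM in iDKO, against 4299 and 6611 CPM in control. At 25 DPI it had 1701 and 6276 CPM in iDKO, against 519 and 7108 CPM in control. As for the integrins, the iDKO libraries were the lower ones at 52 DPI without overlap. At 25 DPI the iDKO libraries of Col17a1 lay between the 2 controls. The log2 fold change was -0.93 (SE 1.19) at 52 DPI and 0.06 (SE 1.18) at 25 DPI. Neither passed (edgeR, adjusted p = 1 and 0.9999).

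Cd151 encodes a tetraspanin that associates with laminin-binding integrins. It had 33.7 and 124 CPM in iDKO and 45.2 and 142 CPM in control at 52 DPI, and 44.6 and 106 CPM in iDKO and 30.9 and 114 CPM in control at 25 DPI. In all 4 groups replicate 2 was higher than replicate 1, and the groups overlapped at both times. Its log2 fold changes were the closest to 0 at 52 DPI among the 9 genes, -0.24 (SE 0.94), and 0.06 (SE 0.94) at 25 DPI.

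**Figure D1:**
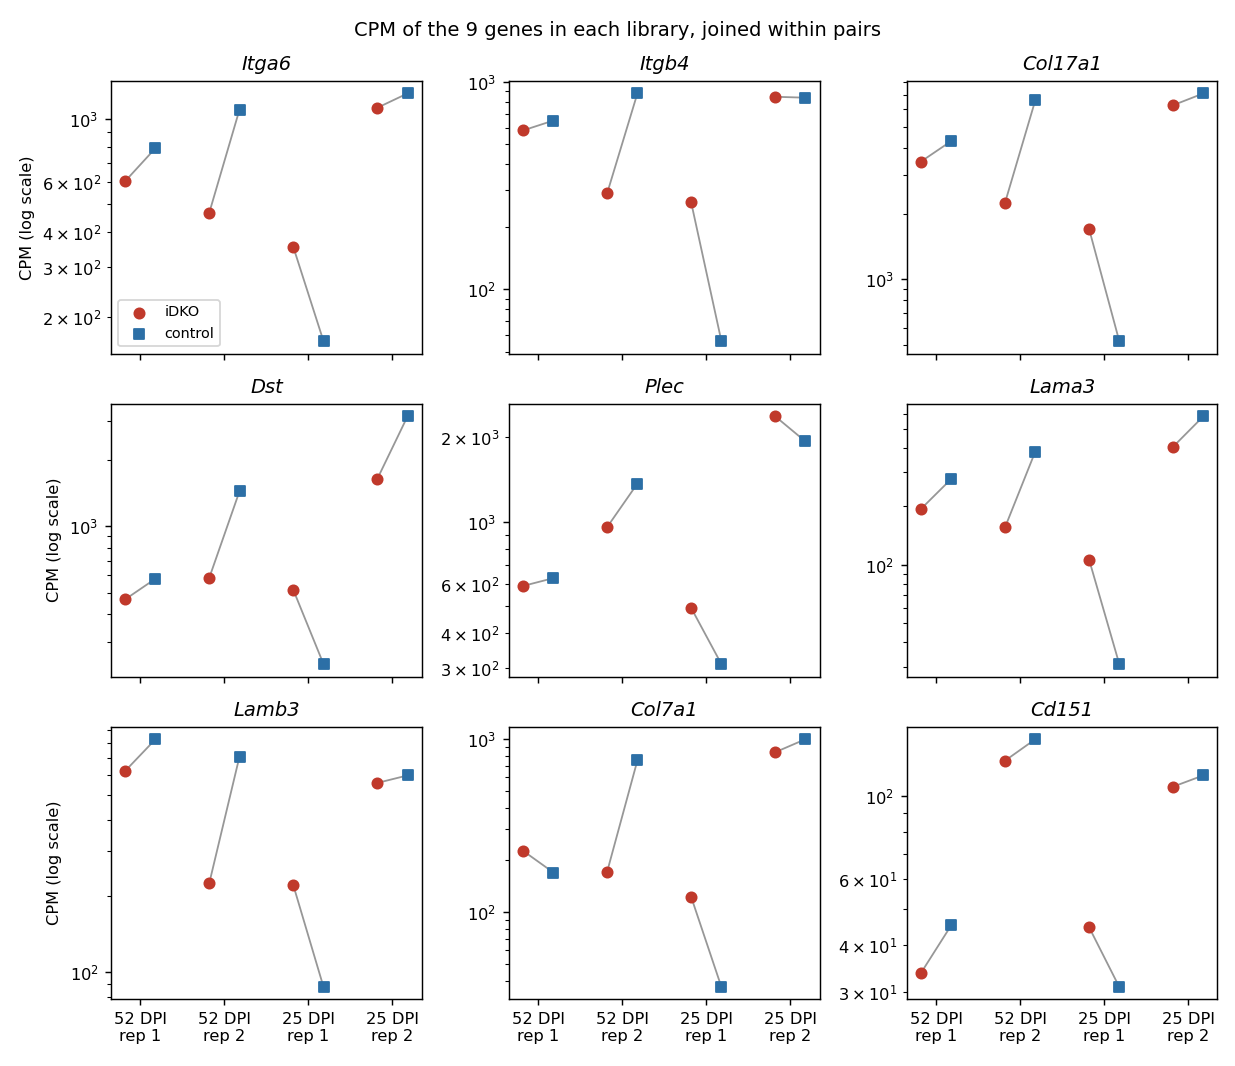
CPM (log scale) of each of the 9 genes in the 8 libraries, iDKO as red circles and control as blue squares, with grey lines joining the libraries of 1 time and replicate number. At 52 DPI the iDKO library was lower in both pairs for 8 genes, with Col7a1 replicate 1 as the exception (226 CPM in iDKO and 169 CPM in control), while control 25 DPI replicate 1 was the lowest point in every panel.

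Dst and Plec encode the plakins of the inner plaque. Dst makes the epithelial form known as the bullous pemphigoid antigen, besides long nerve and muscle forms that share its locus, and the counts do not separate these forms. It had 468 and 585 CPM in iDKO and 580 and 1439 CPM in control at 52 DPI. At 25 DPI it had 517 and 1636 CPM in iDKO and 239 and 3134 CPM in control. The control replicate 2 libraries were the highest at each time, and the groups overlapped at both times, at 52 DPI by 585 CPM in an iDKO library and 580 CPM in a control. The log2 fold change was -0.94 (SE 1.15) at 52 DPI and -0.65 (SE 1.14) at 25 DPI. At 25 DPI the direction depended on how the replicates were weighed, and with the block it was 0.09 (SE 0.53).

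Plec encodes plectin, which links the integrin tail to keratin filaments and also serves other junctions and cell types. It had 590 and 957 CPM in iDKO and 629 and 1368 CPM in control at 52 DPI, and 492 and 2377 CPM in iDKO and 310 and 1934 CPM in control at 25 DPI. Groups overlapped at both times, and the 2 replicates of each group were farther apart than the libraries of a pair. The log2 fold change was -0.37 (SE 1.05) at 52 DPI and 0.35 (SE 1.05) at 25 DPI. Within pairs, iDKO minus control was -0.09 and -0.52 on the log2 scale at 52 DPI and 0.67 and 0.30 at 25 DPI. With the block, the effect at 52 DPI minus that at 25 DPI was -0.79 (SE 0.38) and did not pass (edgeR, adjusted p = 0.793).

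Lama3 and Lamb3 encode the alpha and beta chains of the laminin trimer of the epidermal basement membrane, to which the integrin binds. Lama3 had 194 and 156 CPM in iDKO and 277 and 383 CPM in control at 52 DPI, and 107 and 405 CPM in iDKO and 30.9 and 582 CPM in control at 25 DPI. Lamb3 had 623 and 224 CPM in iDKO and 830 and 710 CPM in control at 52 DPI, and 220 and 558 CPM in iDKO and 87.2 and 597 CPM in control at 25 DPI. For both chains the iDKO libraries were below the controls at 52 DPI without overlap, and at 25 DPI replicate 1 was higher in iDKO and replicate 2 lower. Lamb3 was the one gene of the 9 whose libraries did not overlap between times in controls, with 830 and 710 CPM at 52 DPI against 87.2 and 597 CPM at 25 DPI. The log2 fold changes at 52 DPI were -0.91 (SE 1.18) for Lama3 and -0.86 (SE 0.98) for Lamb3, with adjusted p = 1 for each (edgeR). At 25 DPI they were -0.26 (SE 1.17) for Lama3 and 0.18 (SE 0.97) for Lamb3, and the Lama3 value was 0.62 (SE 0.55) with the block. With the block, the change in effect between times was -1.65 (SE 0.63) for Lamb3 and did not pass (edgeR, unadjusted p = 0.0348, adjusted p = 0.793).

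Per length, Lamb3 was at 1.67 to 5.21 times Lama3 over the 8 libraries. The ratio of Lamb3 to Lama3 was 5.21 and 2.33 in iDKO and 4.87 and 3.01 in control at 52 DPI, so the replicates of a group differed more in it than the genotypes did.

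Col7a1 encodes type VII collagen of the anchoring fibrils, made by keratinocytes and dermal fibroblasts. It had 226 and 171 CPM in iDKO and 169 and 753 CPM in control at 52 DPI, and 122 and 840 CPM in iDKO and 36.7 and 999 CPM in control at 25 DPI. Of the 9 genes it had the widest gap between replicates, 2.52 on the log2 scale on average over the 4 groups. The groups overlapped at both times, and at 52 DPI the pairs went opposite ways, 0.42 and -2.14 on the log2 scale. Its log2 fold change was -1.22 (SE 1.46) at 52 DPI and -0.11 (SE 1.44) at 25 DPI, with 0.73 (SE 0.70) at 25 DPI under the block.

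Across the 9 genes, every fold change of iDKO over control was below 0 at 52 DPI, with a median of -0.86 on the log2 scale against -0.01 over all 17839 tested genes. Markers of immune cells lay the other way at 52 DPI, with fold changes above 0 for 6 of 6 T cell markers (median 1.17) and 4 of 4 Langerhans cell markers (median 1.13), none of which passed in edgeR. The T cell markers summed to 182 and 276 CPM in iDKO and 144 and 53.0 CPM in control, and the Langerhans cell markers to 726 and 534 CPM in iDKO and 299 and 270.1 CPM in control. Their part in the values of the 9 genes was not tested. The 5 genes without overlap, which varied closely together, were Itga6, Itgb4, Col17a1, Lama3 and Lamb3, while the background share of genes with both iDKO libraries below both controls was 10.2%. At 25 DPI the fold changes were above 0 for 6 genes and below 0 for 3, with a median of 0.06 against -0.03 over all genes. There 0 of the 9 genes separated the groups in either direction, beside a background of 5.39% above and 5.15% below. The number of the 9 genes that passed was 0 at 52 DPI and 0 at 25 DPI, and percent called over all genes was 0 and 0 (edgeR). At an unadjusted p under 0.05, 143 genes passed at 52 DPI and 75 at 25 DPI, none of them among the 9. DESeq2 called 1 gene at 52 DPI (0.00561% of genes) and 2 at 25 DPI (0.0112%), limma-voom called 0 at each time, and none of the 9 was called. Under the block the median at 52 DPI was again -0.86, and at 25 DPI it was 0.61 with all 9 genes above 0. EdgeR with the block called 0 genes at each time. DESeq2 with the block called 0.196% of 17839 genes at 52 DPI and 0.652% at 25 DPI, none of the 9. The share at 25 DPI is of the 14726 genes to which that fit gave an adjusted p.

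**Figure D2:**
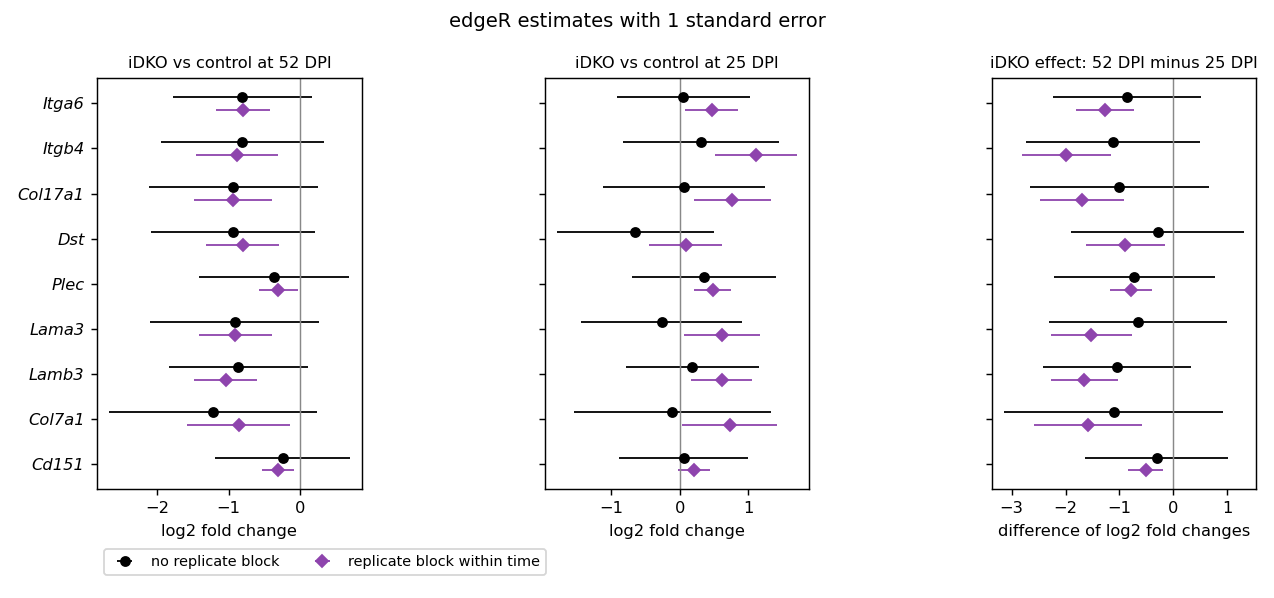
Log2 fold changes from edgeR with bars of 1 standard error for the 9 genes at 52 DPI (left), at 25 DPI (middle) and as the effect at 52 DPI minus that at 25 DPI (right), without a replicate block (black circles) and with it (purple diamonds). The standard errors were derived from the test statistic F. All estimates at 52 DPI are below 0, and the block narrows the bars without bringing any of the 9 genes past an adjusted p of 0.05.

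The direction at 25 DPI rested on single libraries. Without control 25 DPI replicate 1, the library that stood apart, all 9 genes were below 0 at 25 DPI, with a median of -0.78. Without control 25 DPI replicate 2, all 9 were above 0, with a median of 2.25. Without iDKO 25 DPI replicate 2 the median was -1.14, and without iDKO 25 DPI replicate 1 it was 0.70. At 52 DPI all 9 genes stayed below 0 without control replicate 1 (median -1.01) and without iDKO replicate 2 (median -0.75). Without iDKO replicate 1, 8 of the 9 were below 0 (median -1.08), and without control replicate 2, 6 of the 9 were (median -0.55). Itga6, Itgb4, Col17a1, Dst, Lama3 and Lamb3 were below 0 at 52 DPI whichever library was left out. No gene of the 9 passed in any of these fits.

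Within pairs the 2 libraries that stood apart also set the largest differences. In the 52 DPI replicate 1 pair, 1 of the 9 genes was higher in iDKO (50.4% of all genes), with a median difference of -0.31. The 52 DPI replicate 2 pair had 0 of the 9 higher (46.4% of all genes) and a median of -1.30. In the 25 DPI replicate 1 pair all 9 were higher (49.9% of all genes), with a median of 1.34, and in the 25 DPI replicate 2 pair 2 of the 9 were (48.7%), with a median of -0.17. Over all tested genes the pair differences had a median between -0.03 and 0.00. Their SD over all tested genes was 0.54 and 0.93 in the 52 DPI pairs of replicates 1 and 2, and 1.04 and 0.66 in those at 25 DPI. None of the 9 genes was lower in iDKO in all 4 pairs, beside 7.06% of all genes, and none was higher in all 4, beside 6.73%.

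**Figure D3:**
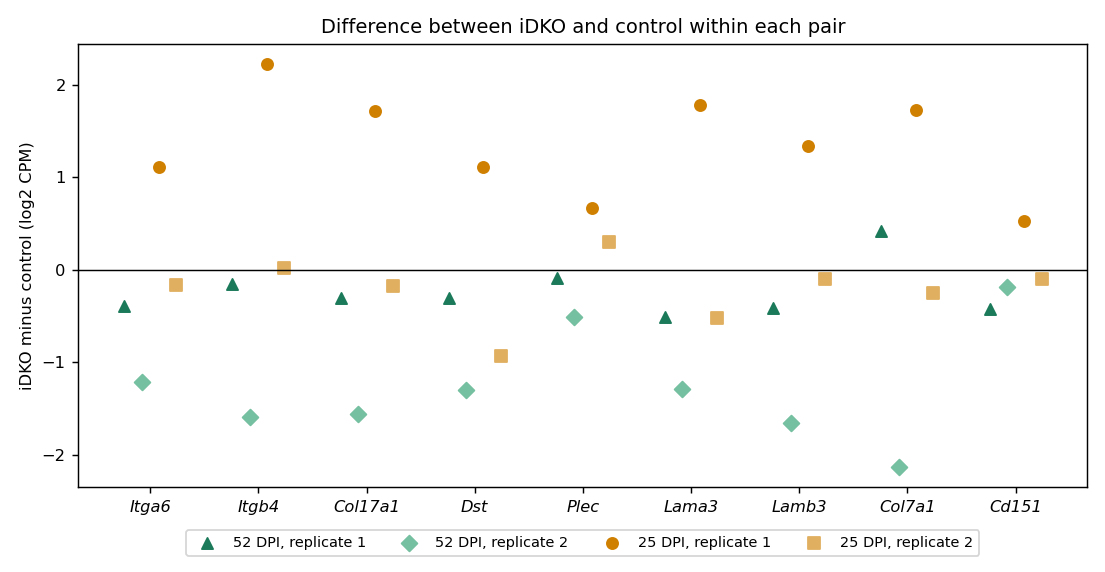
Difference of iDKO minus control in log2 CPM for each of the 9 genes, 1 symbol for each pair of the same time and replicate number. The 25 DPI replicate 1 pair lies above 0 for every gene (0.53 to 2.22) and the 52 DPI replicate 2 pair below 0 for every gene (-0.19 to -2.14), with the other pairs between them for most genes.

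The effect at 52 DPI minus the effect at 25 DPI was below 0 for all 9 genes, with a median of -0.86 against 0.02 over all genes, and the number that passed was 0 (percent called over all genes 0 by edgeR, 139 genes at an unadjusted p under 0.05, 0 genes by DESeq2). This direction rested on single libraries. Without control 25 DPI replicate 1, 5 of the 9 were below 0 (median -0.02), without iDKO 25 DPI replicate 2, 2 of the 9 were (median 0.46), and without control 52 DPI replicate 2, 6 of the 9 were (median -0.38). Without control 25 DPI replicate 2 all 9 were below 0, with a median of -3.15, and without iDKO 25 DPI replicate 1 the median was -1.48. Under the block the median was -1.52. Itgb4 and Lamb3 had an unadjusted p under 0.05 in edgeR with the block, beside 6.26% of all genes. DESeq2 with the block gave 6 of the 9 genes an unadjusted p under 0.05, beside 6.92% of all genes. As most of the 9 varied together, these are not separate observations. That fit called none of the 9, where it called 0.309% of the 12305 genes given an adjusted p. Over both times, all 9 fold changes were below 0, with a median of -0.38 against -0.02 over all genes, the lowest being Dst at -0.79 (SE 0.75). The number that passed was again 0, with percent called 0 by edgeR, 130 genes at an unadjusted p under 0.05, and 0.0448% of genes called by DESeq2. Under the block 7 of the 9 were below 0, with a median of -0.11, and edgeR called 1 gene in all (0.00561% of genes), which was none of the 9. DESeq2 with the block called 0.392% of genes, again none of the 9. Leaving out the pair of 25 DPI replicate 1, which holds the control library that stood apart, put all 9 below 0 with a median of -0.63, and leaving out the pair of 52 DPI replicate 2 put 7 above 0 with a median of 0.26.

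Between times, 7 of the 9 genes were lower at 52 than at 25 DPI in iDKO, with a median of -0.48 against -0.12 over all genes, and 6 of the 9 were higher at 52 than at 25 DPI in controls, with a median of 0.37 against -0.14. In iDKO the lowest was Col7a1 at -1.28 (SE 1.46), and in controls the highest was Lamb3 at 1.17 (SE 0.98), with 0.36 to 3.18 when single libraries were left out. Without control 25 DPI replicate 1, 1 of the 9 was higher at 52 DPI in controls (median -0.40), without control 25 DPI replicate 2 all 9 were (median 3.18), and without control 52 DPI replicate 2, 4 of the 9 were (median -0.16). In iDKO all 9 were higher at 52 DPI without iDKO 25 DPI replicate 2 (median 0.70) and all 9 were lower without iDKO 25 DPI replicate 1 (median -1.15). None of the 9 passed (percent called 0 in each genotype by edgeR, with 298 genes in iDKO and 269 in controls at an unadjusted p under 0.05, and 0.0617% and 0.0729% of genes called by DESeq2). In iDKO 0 of the 9 separated the times in either direction, beside a background of 11.6% above and 8.75% below, and in controls Lamb3 alone did, beside 11% above and 9.7% below. Both comparisons are confounded with sex, as stated above.

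Levels between genes can be set side by side only per length, as CPM per kb of merged exons. Col17a1 was first in all 8 libraries, with a median of 646 CPM per kb. Itgb4 (88.0), Lamb3 (87.4) and Itga6 (77.2) followed, and their order differed between libraries, as each ranked from 2nd to between 4th and 6th. Plec had a median of 43.8, Cd151 27.6, Lama3 21.9, Col7a1 19.3 and Dst 14.2 CPM per kb, and neighbours in this order overlapped over the libraries. The order after Col17a1 also depended on the length used, since with the longest transcript of each gene Itga6 came second and Dst seventh. For Dst the merged exons take in 41155 bases of several forms, and how many counts each form gave is not known.

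**Figure D4:**
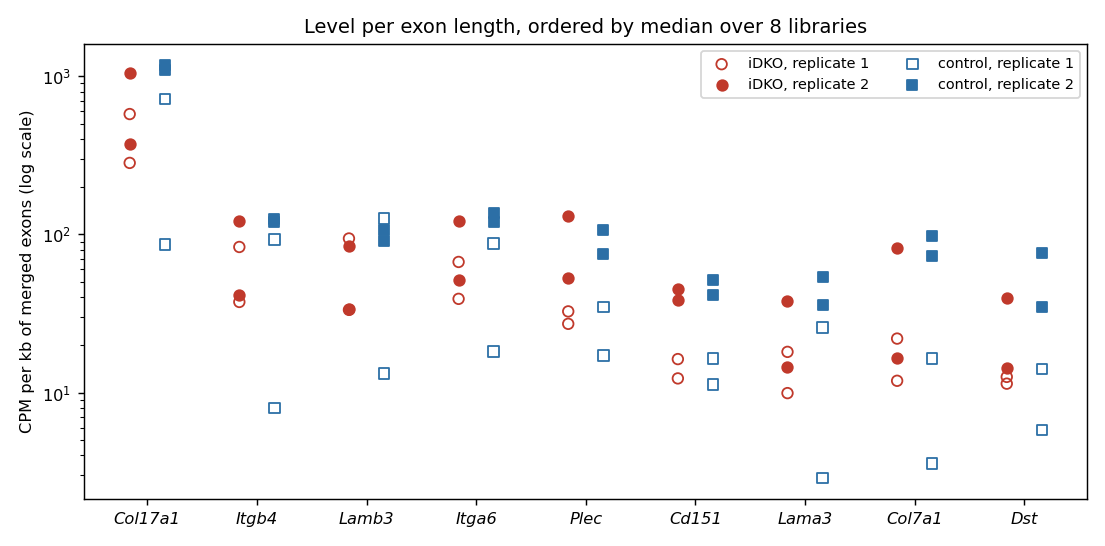
Level per length (CPM per kb of merged exons, log scale) of the 9 genes in each library, ordered by the median over 8 libraries, iDKO as red circles and control as blue squares, with open symbols for replicate 1 and filled symbols for replicate 2. Col17a1 lies above the other genes, at a median of 646 CPM per kb, and for most genes the filled symbols lie above the open ones.

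The 9 genes took 0.679% and 0.522% of all counts in iDKO and 0.827% and 1.34% in control at 52 DPI, and 0.382% and 1.41% in iDKO and 0.147% and 1.65% in control at 25 DPI. Replicate 2 was the higher in 3 of these 4 groups, and Dst, Plec and Cd151 were higher in replicate 2 in every group. The mean gap between replicates of a group was 1.34 to 2.52 on the log2 scale for the 9 genes, while the mean gap within pairs was 0.31 to 1.13. Replicates also differed in their share of counts on the second strand, 49.8% to 49.97% in the replicate 1 libraries and 95.4% to 95.7% in the replicate 2 libraries. In the gaps between replicates, differences between animals and in library preparation cannot be told apart. Among genes that overlap them on the genome, Parp10 held the most counts relative to its neighbour, 4.33% of the count of Plec.

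With log2 CPM centred within each replicate number, each gene was correlated with the mean of the other 8 over the 8 libraries. Pearson's r was 0.988 for Col17a1, 0.987 for Itga6, 0.987 for Lama3, 0.973 for Itgb4, 0.944 for Lamb3 and 0.936 for Col7a1. It was lower for the plakins, at 0.836 for Plec and 0.804 for Dst, and was 0.302 for Cd151. Itga6 and Col17a1 had the closest single match of those named here, at 0.995. These values describe 8 libraries that share their scaling, and the library that stood apart enters each of them. Outside the list, the genes with the most similar profile among 9679 protein coding genes were Glud1 (r = 0.997), Wnt3a (0.996), Yap1 (0.993), Btbd3 (0.993) and Gna14 (0.993), of which Wnt3a is a secreted signal and Yap1 a transcriptional co-activator.

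Krt5 and Krt14, the keratins of the basal layer to which hemidesmosomes attach, moved with the 9 genes in some pairs. Their summed level was 32743 and 17312 CPM in iDKO and 33643 and 29323 CPM in control at 52 DPI, and 32249 and 30481 CPM in iDKO and 16468 and 26058 CPM in control at 25 DPI. The 2 low libraries were iDKO 52 DPI replicate 2 and control 25 DPI replicate 1, the same that had the highest summed CPM of the follicle markers, though not of every marker. Per 1000 CPM of these keratins, the 9 genes summed to 207 and 301 CPM in iDKO and 246 and 456 CPM in control at 52 DPI, and to 118 and 464 CPM in iDKO and 89.5 and 635 CPM in control at 25 DPI. The iDKO over control ratio of the sum was 0.820 and 0.390 in the 52 DPI pairs and 2.59 and 0.855 in the 25 DPI pairs. Taken per keratin it was 0.843 and 0.661 at 52 DPI, and 1.32 and 0.731 at 25 DPI. Per keratin, 1 and 2 of the 9 genes were higher in iDKO in the 52 DPI pairs, and 7 and 1 in the 25 DPI pairs. This ratio was chosen after the values were seen and was not tested. It rests on Krt5 and Krt14 alone. Over the 10 basal keratinocyte markers iDKO 52 DPI replicate 2 was again lowest, at 23584 CPM, but control 25 DPI replicate 1 did not stand out. It held 36843 CPM, against 47833 CPM in its iDKO pair and 36458 and 36883 CPM in control and iDKO 25 DPI replicate 2. In the 25 DPI replicate 1 pair 6 of these markers were higher in iDKO and 4 lower.

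**Figure D5:**
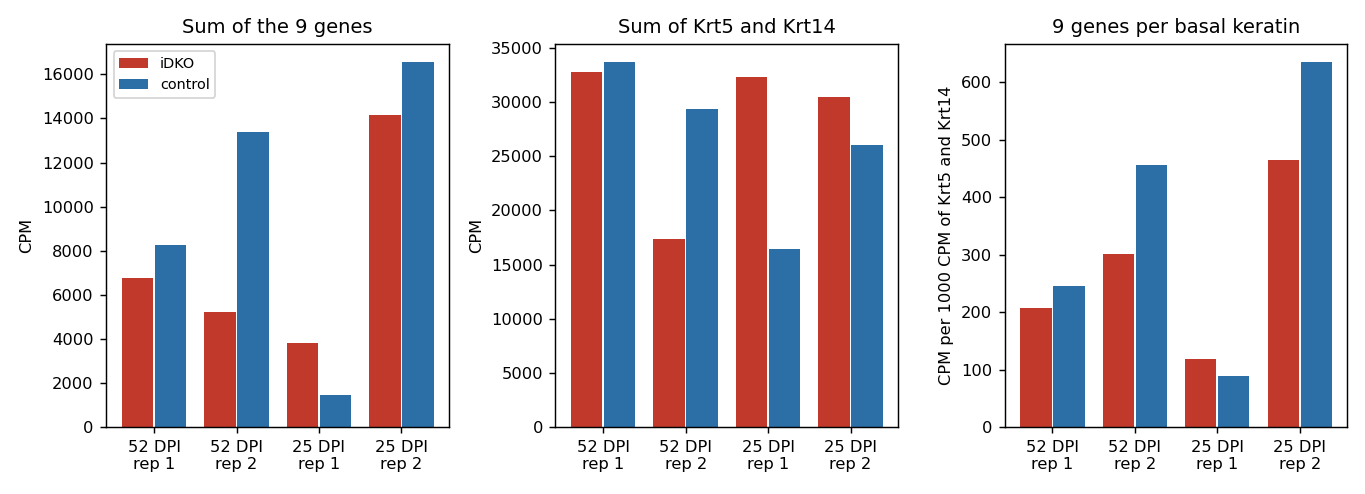
Bars give, for each library, the summed CPM of the 9 genes (left), the summed CPM of Krt5 and Krt14 (middle) and the first per 1000 CPM of the second (right), iDKO in red beside control in blue. The keratins are low in iDKO 52 DPI replicate 2 (17312 CPM) and control 25 DPI replicate 1 (16468 CPM), and the gaps within those pairs are smaller per keratin.

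A further list held 9 genes of the anchorage or the basal layer, among them Itga3, Itgb1, Krt5, Krt14 and Trp63. Of these, 0 had a fold change above 0 and 9 below 0 at 52 DPI, with a median of -0.55. At 25 DPI 7 were above and 2 below, with a median of 0.28. None of these further genes passed. Itgb1, Krt5, Krt14 and Trp63 are also among the basal keratinocyte markers, so this list partly repeats those markers. Itgb1, the integrin beta chain of focal contacts, had 314 and 188 CPM in iDKO and 408 and 344 CPM in control at 52 DPI, and 185 and 316 CPM in iDKO and 135 and 341 CPM in control at 25 DPI. Fermt1, the kindlin that activates integrins in keratinocytes, was lower in iDKO in all 4 pairs, with differences of -0.44 and -0.71 on the log2 scale at 52 DPI and -0.50 and -0.42 at 25 DPI. Its change across both times did not pass, at -0.53 (SE 0.15) in DESeq2 with the block (adjusted p = 0.0818) and -0.54 (SE 0.36) in edgeR without it (adjusted p = 1).

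Of 28 other basement membrane genes, such as further laminin chains, nidogens and type IV collagens, 10 were above 0 and 18 below at 52 DPI, and 19 above and 9 below at 25 DPI, and none passed. Their medians were -0.42 at 52 DPI and 0.22 at 25 DPI. Lamb1, a laminin chain of many basement membranes, had 5.53 and 135 CPM in iDKO and 9.79 and 11.5 CPM in control at 52 DPI, and 8.67 and 32.1 CPM in iDKO and 10.9 and 38.3 CPM in control at 25 DPI. Its high value was in 1 library, iDKO 52 DPI replicate 2. Lama2 and Nid1 were at 5.55 CPM or less in every library.

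Of 17 tested genes of focal adhesions and other integrins, 7 were above 0 and 10 below at 52 DPI, and 11 above and 6 below at 25 DPI, and edgeR called none. DESeq2 with the block called 2 of them. Itga5, the fibronectin receptor chain, rose in iDKO at 25 DPI by this fit, with 11.4 and 25.3 CPM in iDKO and 2.42 and 10.0 CPM in control (log2 fold change 1.73, SE 0.40, adjusted p = 0.00545). Itgb6, the beta chain of an integrin of activated epithelia, fell in iDKO at 52 DPI by the same fit, with 24.9 and 10.3 CPM in iDKO and 55.4 and 23.9 CPM in control (log2 fold change -1.20, SE 0.30, adjusted p = 0.0302). Fibronectin itself, Fn1, here in the list of fibroblast markers, rose across both times by this fit, with 51.3 and 42.6 CPM in iDKO and 27.0 and 33.9 CPM in control at 52 DPI, and 36.2 and 305 CPM in iDKO and 15.0 and 91.4 CPM in control at 25 DPI (DESeq2 with the block, log2 fold change 1.06, SE 0.27, adjusted p = 0.0293). It did not pass in edgeR with the block (adjusted p = 0.927), nor without it in edgeR or DESeq2 (adjusted p = 1 in each), and its edgeR value was 0.20 to 1.61 when single libraries were left out. At 25 DPI by this fit Fn1 rose by 1.50 (SE 0.31) and Col1a2, a collagen of fibroblasts, by 1.41 (SE 0.37), with adjusted p = 0.000677 and 0.0327. The summed level of the 10 fibroblast markers was 210 and 243 CPM in iDKO and 182 and 258 CPM in control at 52 DPI, and 89.9 and 555 CPM in iDKO and 58.4 and 213 CPM in control at 25 DPI. Their part in the integrin values was not tested.

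Of 15 tested matrix proteases and inhibitors, 6 were above 0 and 9 below at 52 DPI, and 12 above and 3 below at 25 DPI, and edgeR called none. Mmp9, a gelatinase that can cut basement membrane collagens, had 18.9 and 16.2 CPM in iDKO and 9.64 and 8.78 CPM in control at 52 DPI, and 6.50 and 6.75 CPM in iDKO and 3.46 and 2.26 CPM in control at 25 DPI. At each time both iDKO libraries were above both controls. It rose across both times in DESeq2 with the block (log2 fold change 1.08, SE 0.25, adjusted p = 0.00839) and did not pass in edgeR without it (1.07, SE 0.31, unadjusted p = 0.00834, adjusted p = 1). Mmp2, a second gelatinase, was higher in iDKO in all 4 pairs, by 0.49 and 0.54 on the log2 scale at 52 DPI and 0.66 and 1.04 at 25 DPI, and did not pass in either fit (DESeq2 with the block, adjusted p = 0.0751).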

How the data were processed

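Counts were deposited by the authors as whole reads for 54838 genes in each library, unscaled, and the column without regard to strand was taken. Per the labels' protocols the RNA came from a Trizol extraction and went into a SMART-seq library kit. The submitters' processing notes name STAR (2.5.2a), Trimmomatic (0.35), FastQC (0.11.9) and DESeq2 (1.24.0), with the build GRCm38, and no annotation release or settings were found. Identifiers were matched to the GENCODE annotation of GRCm38.

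Genes were filtered with filterByExpr on the 4 groups, scaled by TMM and tested with the quasi-likelihood test of edgeR 4.0.16 (R 4.3.3). The SE given for edgeR is the absolute log2 fold change over the square root of the test statistic F, as this test reports none. The SE of DESeq2 is its own. The model had 1 mean per group over all 8 libraries, or time and genotype for both times together. Adjustment by Benjamini-Hochberg ran over 17839 genes, an adjusted p under 0.05 was called, and p values set each difference against the spread between these libraries. The labels number replicates 1 and 2 in each group. Deviations from the group mean correlated between same-numbered libraries at 0.395 to 0.793 for all 6 group pairs, which was taken as pairing, and fits with the number as a block within time (2 residual degrees of freedom) were run. The correlation also held between times, at 0.395 to 0.502, and the number splits all libraries by their share of counts on the second strand. A match of animals and a difference in preparation therefore cannot be told apart. The spread in the fits without a block holds both.

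DESeq2 1.42.0, limma-voom 3.58.1, RLE scaling, no filter, the second-strand column for replicate 2 and leaving out libraries were alternatives. Leaving out pairs and the level per keratin were added after the values were seen. The code was tested on simulated data. The 9 genes, the other lists and the tests were chosen with earlier results of these data known. Outside the 9 genes, those named were the called ones of each list and, for the 4 lists nearest to the anchorage, up to 3 with the smallest unadjusted p across both times. The 5 genes of most similar profile were taken among protein coding genes whose mean log2 CPM was 3 or more.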

Additional observations from a re-analysis of the deposited data

Results flagged for a closer look

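In DESeq2 with the replicate number as a block within time, the iDKO effect on Itgb6, the beta chain of an integrin of activated epithelia, differed between times, at 52 DPI minus 25 DPI by -1.87 on the log2 scale (SE 0.42, adjusted p = 0.00774). Itgb6 was lower in iDKO in both 52 DPI pairs (-1.15 and -1.20) and higher in both 25 DPI pairs (0.57 and 0.76). For Cd3d, a T cell receptor subunit, the same difference was 2.82 (SE 0.73, adjusted p = 0.0415), with 23.1 and 38.6 CPM in iDKO and 16.1 and 6.66 CPM in control at 52 DPI, and 22.2 and 5.81 CPM in iDKO and 82.2 and 9.67 CPM in control at 25 DPI. Neither passed in edgeR, and none of the 9 hemidesmosome and basement membrane genes was called in this comparison. The Cd3d pair differences were -1.88 (25 DPI replicate 1) and 2.52 (52 DPI replicate 2) in the pairs with the 2 libraries that stood apart. In the other pairs they were -0.73 (25 DPI replicate 2) and 0.52 (52 DPI replicate 1). For both genes, time and sex cannot be told apart here.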

How the results depend on the processing

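Within the 9 genes none was called under any alternative. At 52 DPI no alternative tool, scaling, filter, strand column or block turned the direction of any of the 9 fold changes, and leaving out single libraries turned it for Cd151 (-1.46 to 0.82), Plec (-0.82 to 0.31) and Col7a1 (-1.92 to 0.24). At 25 DPI leaving out single libraries turned it for every one of the 9, with ranges of -0.96 to 2.19 for Itga6, -0.74 to 3.34 for Itgb4, -1.14 to 2.98 for Col17a1, -0.68 to 1.32 for Cd151, -1.68 to 2.21 for Dst, -1.17 to 2.25 for Plec, -1.50 to 3.09 for Lama3, -0.64 to 2.19 for Lamb3 and -2.06 to 3.75 for Col7a1. The range was -2.09 to 0.69 for Col7a1 between times in iDKO, -1.21 to 0.10 for Dst over both times together, and -2.61 to 0.82 for the difference of the Plec effects. The counts of genes called changed with the tool and the filter, and the cause was not tested. Without the filter on low counts edgeR called 25 genes at 52 DPI, 8 at 25 DPI, 19 for the difference, 16 over both times, 37 between times in iDKO and 62 in controls. DESeq2 without a block called 1, 2, 0, 8, 11 and 13 in the same order.

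With the replicate block within time, which follows the replicate numbers, 3 fold changes at 25 DPI turned to above 0. They were 0.085 for Dst, 0.62 for Lama3 and 0.73 for Col7a1 in edgeR, and 0.076, 0.62 and 0.73 in DESeq2 with that block, and limma-voom without a block gave 0.15, 0.69 and 0.80. With the replicate block over both times they were 0.074 for Lama3 and 0.31 for Col7a1. DESeq2 with the block within time called 35 genes at 52 DPI, 96 at 25 DPI, 38 for the difference and 70 over both times, and edgeR with it called 1 over both times, 2 without the pair of 25 DPI replicate 1 and 1 without that of 52 DPI replicate 2. It brought Mmp9 (1.08) and Fn1 (1.06) past the threshold in DESeq2.

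With 2 libraries per group the precision of each fold change is set by the spread between libraries and not by depth, since each of the 9 genes had at least 391 counts in every library.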
